A study of Mus musculus with 2 samples.

Results

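The 7 class 3 semaphorins of the mouse (Sema3a, Sema3b, Sema3c, Sema3d, Sema3e, Sema3f and Sema3g) and the receptor gene Plxnd1, which encodes plexin D1, were followed through the cell classes of the neonatal heart at postnatal day 1 (P1) and day 7 (P7). They were taken by symbol, as 8 of the 31053 genes in each count matrix. Each of the 8 symbols named 1 gene.

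Class 3 semaphorins are secreted proteins first known for steering axons. Most of them bind a neuropilin co-receptor, which pairs with a plexin that carries the signal into the cell, whereas Sema3e binds plexin D1 directly. In the heart and its vessels, Sema3c is known for its role in the outflow tract, Sema3d for the pulmonary veins and the epicardium, Sema3a for cardiac innervation, and plexin D1 for endothelial patterning.

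Hearts were dissociated with collagenase II, and live cells were sorted and profiled on the 10x Genomics platform. Each age was represented by 1 library, made from 3 hearts of a single litter that were pooled before digestion, so no test between ages was possible and values are given with 95% intervals that cover counting error only. The genotype and strain of these hearts are not given in the sources used here. The P1 tissue was digested for 20 min and the P7 tissue for 45 min, and the libraries differed in sex (Xist had 57336 UMIs at P1 and 12 at P7, against 2 and 18039 UMIs for 4 Y-linked genes), so that age, digestion and sex cannot be told apart.

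Unique molecular identifiers (UMIs) count each captured mRNA molecule once. After filtering, 4991 cells with 59026295 UMIs remained at P1 and 8511 cells with 97432007 UMIs at P7, and 13 of the barcodes kept were shared by both libraries. Cells were put into 7 classes by the UMIs of marker genes that are not members. Endothelial cells (Cdh5) were divided into arterial cells with a UMI of Gja5 (53 at P1 and 171 at P7) and other endothelium (1633 and 3129). Fibroblasts (Pdgfra) were divided into cells with Pi16, named Pi16 fibroblasts here (225 and 1487), and cells without it, named Pdgfra fibroblasts (1021 and 756). Smooth muscle (Myh11) comprised 131 and 351 cells, pericytes (Kcnj8) 163 and 299, and epicardium (Upk3b) 43 and 20. The remaining 34.5% of P1 cells and 27.0% of P7 cells passed no gate, several gates or the leukocyte gate. A level is the sum of UMIs of a gene in a class, scaled to the total UMIs of that class as CPM.

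Independent marker genes were highest in their own class for 7 of 7 endothelial, 7 of 8 arterial and 8 of 8 epicardial markers in both libraries, for 6 and 7 of 7 fibroblast and smooth muscle markers at P1 and P7, and for 5 and 6 of 7 pericyte markers. Of the 7 markers of Pi16 fibroblasts, only 2 at P1 and 4 at P7 were highest there among all classes, although all 7 were higher in Pi16 than in Pdgfra fibroblasts in both libraries. Cells with a UMI of any of 6 genes typical of lung made up 20.9% of cells at P1 and 3.89% at P7, and 62.8% (27 of 43) of the P1 epicardium. In the P7 epicardium they made up 10.0%. In the classes other than epicardium their share lay between 16.4% and 28.2% at P1 and between 2.22% and 9.36% at P7. For other endothelium it was 23.1% and 4.54%. Levels and ratios below include these cells unless stated otherwise. Whether these cells came from lung was not tested.

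The start regions of 4 members are shown because their levels set the classes apart, with Sema3c and Sema3d in fibroblasts and epicardium and Sema3g and Plxnd1 in endothelium. Each sequence runs from 250 bases before to 50 bases after the RefSeq start on GRCm38.p6 and is written 5′ to 3′ on the strand of the gene. Capitals mark the letters GGAA or their reverse complement TTCC, the core bound by ETS factors, which are known for their role in endothelial genes. The regions are chr5:17574566-17574865 (plus strand) for Sema3c, chr5:12382916-12383215 (plus) for Sema3d, chr14:31217623-31217922 (plus) for Sema3g and chr6:115994956-115995255 (minus) for Plxnd1.
Sema3c: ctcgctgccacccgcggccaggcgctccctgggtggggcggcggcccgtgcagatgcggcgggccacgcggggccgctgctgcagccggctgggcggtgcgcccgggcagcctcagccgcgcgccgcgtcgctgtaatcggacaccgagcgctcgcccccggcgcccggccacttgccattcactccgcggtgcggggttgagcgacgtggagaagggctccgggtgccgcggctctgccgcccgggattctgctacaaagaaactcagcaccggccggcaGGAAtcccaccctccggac
Sema3d: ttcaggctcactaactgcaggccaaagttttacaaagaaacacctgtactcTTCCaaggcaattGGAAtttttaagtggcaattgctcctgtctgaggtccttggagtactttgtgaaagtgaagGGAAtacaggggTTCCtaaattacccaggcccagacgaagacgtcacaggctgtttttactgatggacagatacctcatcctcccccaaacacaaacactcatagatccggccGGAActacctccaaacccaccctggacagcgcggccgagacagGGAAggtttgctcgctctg
Sema3g: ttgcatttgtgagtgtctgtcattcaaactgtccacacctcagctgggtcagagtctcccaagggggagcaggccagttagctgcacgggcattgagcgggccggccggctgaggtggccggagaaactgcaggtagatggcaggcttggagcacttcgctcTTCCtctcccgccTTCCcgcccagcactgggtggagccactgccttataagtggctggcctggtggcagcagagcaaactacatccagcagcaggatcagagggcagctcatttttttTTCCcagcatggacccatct
Plxnd1: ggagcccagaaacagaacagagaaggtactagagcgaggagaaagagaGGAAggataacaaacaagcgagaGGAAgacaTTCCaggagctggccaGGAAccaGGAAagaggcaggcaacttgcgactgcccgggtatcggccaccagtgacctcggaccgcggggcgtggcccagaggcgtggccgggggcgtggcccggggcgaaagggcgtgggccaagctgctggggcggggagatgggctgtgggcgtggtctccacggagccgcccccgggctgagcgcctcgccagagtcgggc

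RefSeq start regions were matched for 6 of the 8 members, and among them the 4 shown differed in composition and in copies of this core. The Sema3c region was 75.7% G and C and held 1 copy, whereas the Sema3d region was 49.7% G and C and held 6 copies. The Sema3g region had 58.7% G and C with 3 copies, and the Plxnd1 region 67.0% with 5. Over the 32851 regions of this length in the table, the median was 52.7% G and C and 3 copies, and 96.0% held at least 1 copy. At least 6 copies were held by 15.7% of the regions and at least 5 by 28.6%. On either strand the letters ACGTG, the core of the site of hypoxia-inducible factors, occurred once in the Sema3c region and not in the other 3, against 19.6% of all regions. GGAATG, a TEAD motif that contains the ETS core, occurred once in Plxnd1 (14.7% of all regions), and TGANTCA, an AP-1 motif (7.8%), ACAAT, a SOX core (31.0%), and TATAAA (13.6%) were not found in the 4 regions. These matches describe letters only. In GENCODE M21 on the same build, Sema3d (chr5:12383385-12588948), Sema3a (chr5:13125414-13602565), Sema3e (chr5:14025276-14256689) and Sema3c (chr5:17574281-17730268) lie on the plus strand of the same chromosome. Sema3b (chr9:107597674-107609229) and Sema3f (chr9:107681500-107710475) are on the minus strand of chromosome 9, Plxnd1 is at chr6:115954811-115995005 (minus) and Sema3g at chr14:31217860-31230352 (plus). The annotated spans of Sema3a, Sema3d and Sema3e overlap 4, 2 and 3 other genes, whereas the other 5 members overlap none.

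Over all cells, Sema3c had the widest gap between ages among the 8 genes, with 27.99 CPM at P1 (1652 UMIs; 95% interval 26.7 to 29.4) and 151 CPM at P7 (14752 UMIs; 149 to 154). Sema3a was higher at P1, at 5.30 CPM against 2.48. Sema3e was also higher at P1, but with 43 UMIs against 22 in the whole libraries. These 3 of 8 members were at least 2-fold apart, whereas 12.9% of the 16552 genes with at least 20 summed UMIs were. The log2 ratios of P1 over P7 were -2.44 for Sema3c (-2.51 to -2.36), 1.09 for Sema3a (0.85 to 1.34) and 1.67 for Sema3e (0.92 to 2.50), and 0.810% of the genes were further towards P7 than Sema3c. The ratio of Sema3a was short of 2-fold without cells that had a lung-gene UMI (0.89), with the mean of cell CPM (0.97) and with each cell thinned to 2000 UMIs (0.61). In a level over all cells, fewer cells of a type and less RNA per cell cannot be told apart.

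**Figure D1:**
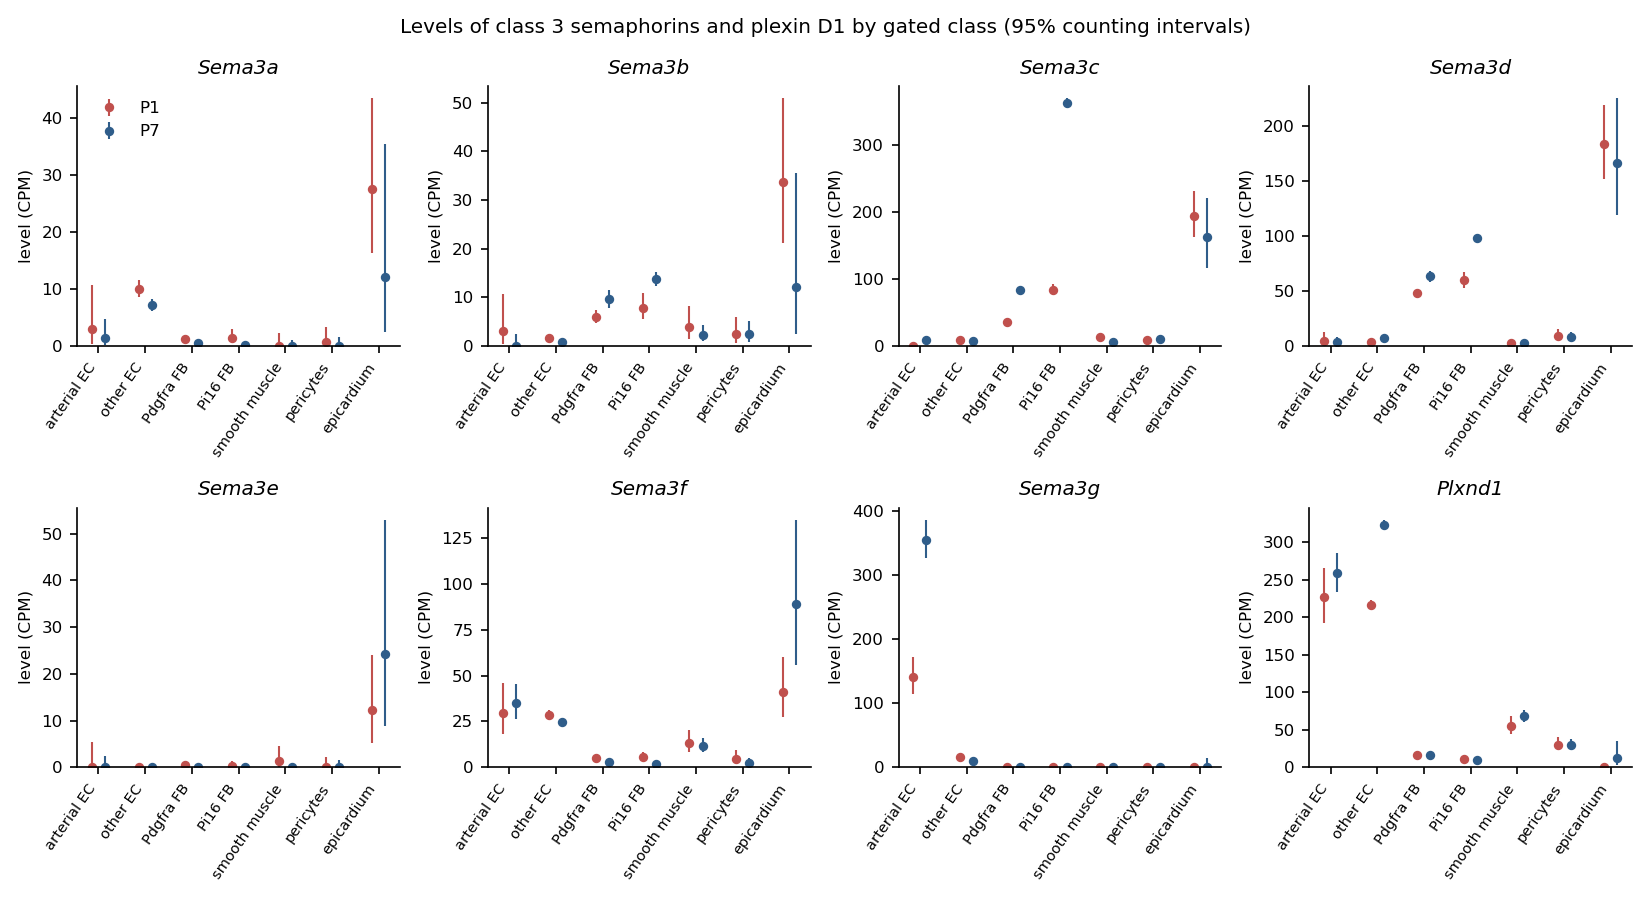
Levels of the 8 genes in CPM (vertical axes, linear from 0) in the 7 gated classes (horizontal axes) at P1 (red) and P7 (blue), with bars for 95% counting intervals. Sema3c and Sema3d stood out in fibroblasts and epicardium, Sema3g in arterial endothelium (141 and 355 CPM) and Plxnd1 in both endothelial classes.

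Sema3c belonged to fibroblasts and epicardium, and its fibroblast level was far higher at P7. In Pi16 fibroblasts it had 83.6 CPM at P1 (75.4 to 92.5) and 362 CPM at P7 (355 to 370). In Pdgfra fibroblasts it had 35.5 CPM at P1 (32.5 to 38.6) and 82.7 CPM at P7 (77.3 to 88.3). The intervals of the ages did not overlap in either class. The log2 ratio of P1 over P7 was -2.11 (-2.27 to -1.97) in Pi16 fibroblasts and -1.22 (-1.38 to -1.06) in Pdgfra fibroblasts, whereas the median of all genes was within 0.02 of 0 in both classes. Only 128 of 12936 genes tested in Pi16 fibroblasts were further towards P7. In the epicardium Sema3c had 194 CPM from 127 UMIs at P1 and 162 CPM from 40 UMIs at P7, with a log2 ratio of 0.25 (-0.26 to 0.81) that became -1.29 with a gate of 1 Upk3b UMI.

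The cell-to-cell view of Sema3c followed the sums. At least 1 Sema3c UMI was found in 48.4% of Pi16 fibroblasts at P1 and 80.8% at P7, with median depths of 19290 and 17789 UMIs per cell. Leukocytes were taken as a background, although whether they express Sema3c themselves was not tested. They had a UMI in 0.281% of cells at P1 and 2.58% at P7, at median depths of 6812 and 6003 UMIs. With every cell thinned to 2000 UMIs, the shares in Pi16 fibroblasts were 8.89% (20 of 225 cells) and 41.8% (620 of 1485 cells), and those in leukocytes 0 of 329 cells (upper bound 1.11%) and 0.718%. The gap between the ages thus remained at equal depth.

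Fibroblasts without a Pi16 UMI made up 81.9% of fibroblasts at P1 and 33.7% at P7, and the fibroblasts as a whole differed more than either of the 2 classes, with 46.6 CPM at P1 and 284 CPM at P7 (log2 ratio -2.61, -2.71 to -2.51). Pi16 fibroblasts held 22.7% of all Sema3c UMIs at P1 and 66.7% at P7. Pi16 itself was at 159 CPM at P1 and 609 CPM at P7 within its own class, and each of the 7 other markers of these cells was also higher there at P7, from -0.69 for Anxa3 to -2.67 for Dpp4 on the log2 scale of P1 over P7. The part of these genes in the Sema3c difference was not tested.

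Grading the fibroblasts by their Pi16 UMIs showed that Sema3c went up with Pi16 and was higher at P7 in every grade. At P7 the level of Sema3c was 82.7, 126, 199, 250.4 and 569 CPM in fibroblasts with 0, 1, 2 to 3, 4 to 7 and 8 or more Pi16 UMIs. At P1 the corresponding levels were 35.5, 62.8, 101, 63.7 and 178 CPM, so the order was broken in cells with 4 to 7 Pi16 UMIs, of which there were 30. Cells with 8 or more Pi16 UMIs made up 27.2% of P7 fibroblasts (611 cells) and 1.77% of P1 fibroblasts (22 cells). The gap between the ages was present within each grade of Pi16. The top grade had no upper limit, and the part of Pi16 in the gap was not tested.

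**Figure D2:**
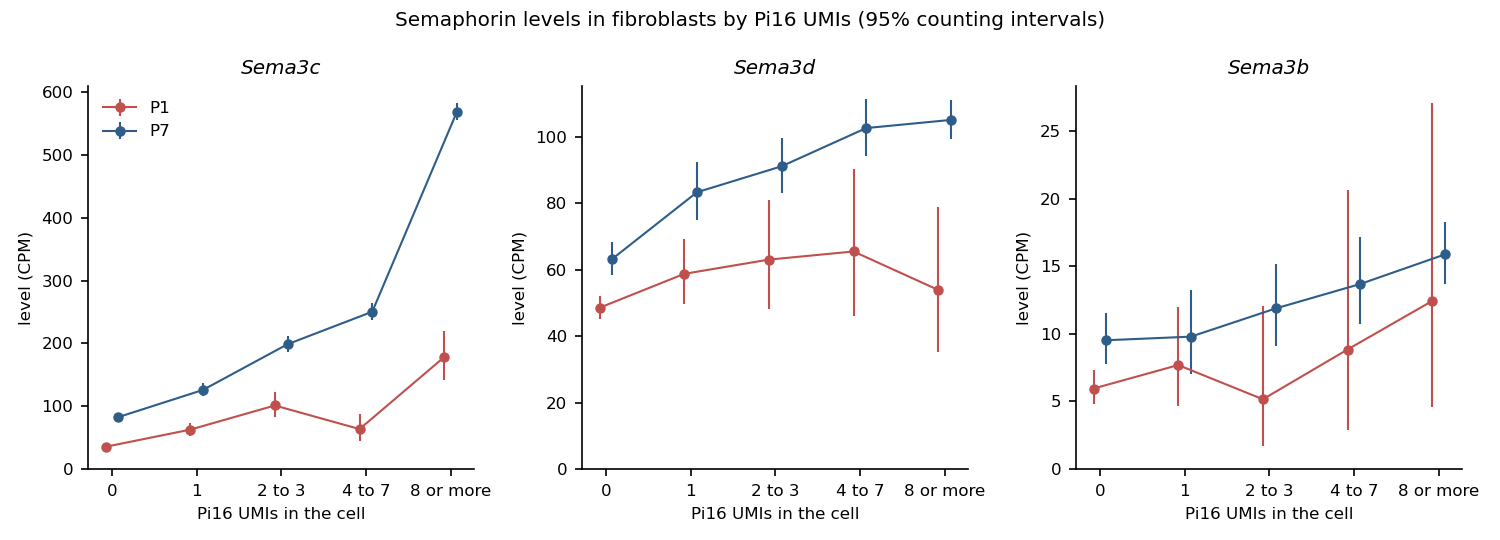
Levels of Sema3c, Sema3d and Sema3b in CPM (vertical axes, from 0) in fibroblasts grouped by their Pi16 UMIs (horizontal axes) at P1 (red) and P7 (blue), with 95% counting intervals. At P7 Sema3c reached 569 CPM in cells with 8 or more Pi16 UMIs, against 178 CPM at P1.

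Between the fibroblast classes of the same library, Sema3c was higher in Pi16 than in Pdgfra fibroblasts at both ages, by 1.24 on the log2 scale at P1 (1.04 to 1.43) and 2.13 at P7 (2.03 to 2.23). It was the 1 member of 5 tested that was at least 2-fold apart in both libraries, where 1.41% of 12386 genes were. Sema3d, Sema3b, Sema3f and Plxnd1 did not reach 2-fold in either library in this comparison. With each cell thinned to 2000 UMIs the P1 excess was 0.89, short of 2-fold. Among the genes tested, 107 at P1 and 59 at P7 leaned further to Pi16 fibroblasts than Sema3c.

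Outside these classes Sema3c was low. Other endothelium had 9.05 CPM at P1 and 7.72 CPM at P7, pericytes had 8.17 and 10.7 CPM, and in arterial endothelium there were 0 UMIs at P1 and 13 at P7 (8.40 CPM, at least 1.89-fold above the limit that 3 counts set at P1). The endothelial UMIs were unevenly spread, since 83 of 3129 cells held all 204 UMIs at P7 and a single cell held 34. A UMI was present in 3.92% of these cells at P1 and 2.65% at P7, against 0.281% and 2.58% of leukocytes. The age ratio in other endothelium, 0.23 on the log2 scale (-0.08 to 0.53), passed 2-fold in 4 alternatives and in both directions, at 1.73 with the mean of cell CPM and 2.04 after thinning, but -1.76 without cells with a lung-gene UMI and -1.79 when cells that passed another lineage gate were kept. In pericytes the ratio of -0.36 became -2.63 and -1.72 under the last 2 of these. No direction is therefore given for Sema3c in either class. In smooth muscle 20 UMIs were found in each library, in 9 of 131 cells at P1 and 7 of 351 at P7 with 14 of the P7 UMIs in a single cell, which gave 12.6 and 5.38 CPM and a log2 ratio of 1.22 (0.25 to 2.19). This was the 1 member of 3 tested in smooth muscle that was 2-fold apart (7.41% of all genes). Without cells that had a lung-gene UMI the ratio was 0.24, and it turned to -0.18 when cells that passed another lineage gate were kept.

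Sema3d shared the classes of Sema3c but differed less between ages. The epicardium was highest, with 183 CPM at P1 (152 to 219) and 166 CPM at P7 (119 to 225). Of the 43 P1 epicardial cells, 27 had a lung-gene UMI. Pi16 fibroblasts had 60.0 CPM at P1 (53.0 to 67.6) and 98.4 CPM at P7 (94.7 to 102), and Pdgfra fibroblasts 48.5 (45.1 to 52.2) and 63.2 CPM (58.5 to 68.2). In both libraries no neighbours in this order of 3 classes had overlapping intervals. The log2 ratio of P1 over P7 was -0.71 (-0.90 to -0.53) in Pi16 fibroblasts and -0.38 (-0.54 to -0.23) in Pdgfra fibroblasts, beyond counting error but short of 2-fold. A UMI of Sema3d was seen in 52.4% and 70.7% of Pi16 fibroblasts (8.44% and 15.4% when thinned), against 0.562% and 1.08% of leukocytes.

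The epicardial excess of Sema3d over Pdgfra fibroblasts was 1.92 on the log2 scale at P1 (1.63 to 2.20) and 1.41 at P7 (0.90 to 1.85). Over the 14 alternatives, which include leaving out cells with a lung-gene UMI, this excess ranged from 1.62 to 2.23 at P1. At P7 it ranged from 1.04 to 1.56. With Sema3f, Sema3d was 1 of 2 members out of 5 tested that were 2-fold apart between epicardium and Pdgfra fibroblasts in both libraries, beside 16.5% of all genes tested. Sema3c was 2.46 higher in the epicardium at P1 but 0.99 higher at P7, just short of 2-fold. Sema3b was 2.52 higher at P1 (1.75 to 3.18), whereas at P7, with 3 UMIs, its difference of 0.57 lay within counting error. Plxnd1 had 0 UMIs in the P1 epicardium and 3 at P7, and was not 2-fold apart in both libraries.

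Pericytes carried more Sema3d than smooth muscle, with 9.34 CPM at P1 and 8.32 CPM at P7 against 2.52 and 2.15 CPM. These levels rest on 16, 21, 4 and 8 UMIs. Pericytes also held more of the 7 fibroblast markers, with 6309 and 8443 CPM together against 2795 and 1858 CPM in smooth muscle. The part of fibroblast RNA in the Sema3d gap was not tested. The log2 ratio of smooth muscle over pericytes was -1.77 at P1 (-3.93 to -0.26) and -1.90 at P7 (-3.33 to -0.72). Sema3d and Sema3f were the 2 members of 4 tested that were 2-fold apart between these classes in both libraries, among 11.8% of all genes, and the median of all genes was itself shifted by -0.14 and -0.19.

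In the endothelium Sema3d was low and higher at P7, with 3.14 CPM at P1 and 7.04 CPM at P7 in other endothelium (log2 ratio -1.15, -1.62 to -0.73). It was the 1 member of 7 tested in this class that was 2-fold apart, against 9.17% of all genes. The ratio was -0.98 without the 5% of cells with the most UMIs and -0.59 after thinning, both short of 2-fold. Lymphatic cells, gated by the transcription factor gene Prox1, had the highest endothelial level, with 16.7 CPM at P1 (15 UMIs in 66 cells) and 50.3 CPM at P7 (45 UMIs in 67 cells). Endocardial cells, gated by Npr3, had 1.54 CPM at P1 (6 UMIs) and 15.5 CPM at P7 (18 UMIs). These 2 gates shared 29 cells at P1 and 13 at P7. Endothelium outside both gates had 2.69 and 5.17 CPM, so that the higher P7 level was seen in each of the 3 groups, whereas arterial cells had 3 and 6 UMIs.

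Sema3b was spread thinly over fibroblasts and epicardium. It had 5.96 CPM at P1 and 9.53 CPM at P7 in Pdgfra fibroblasts, and 7.80 and 13.7 CPM in Pi16 fibroblasts. Both classes were higher at P7 beyond counting error, by -0.68 (-1.11 to -0.25) and -0.79 (-1.36 to -0.31) as log2 ratios of P1 over P7, and neither reached 2-fold. In the epicardium it had 33.6 CPM at P1 from 22 UMIs and 12.2 CPM at P7 from 3 UMIs. That ratio of 1.28 passed 2-fold, but its interval (-0.27 to 3.85) spanned 0, and it was 0.79 with a gate of 1 Upk3b UMI. Sema3b and Sema3f made up the 2 members of 5 tested in the epicardium that were 2-fold apart, where 12.5% of all genes were.

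Sema3g marked the arterial endothelium. It had 141 CPM at P1 (95 UMIs; 114 to 172) and 355 CPM at P7 (550 UMIs; 326 to 387) in arterial cells. Other endothelium had 16.5 CPM at P1 (14.7 to 18.5) and 10.2 CPM at P7 (9.04 to 11.5), and the 5 classes outside the endothelium had at most 1.11 CPM. Arterial cells were thus well above all other classes at both ages, and the arterial excess over other endothelium was 3.098 on the log2 scale at P1 (2.74 to 3.43) and 5.12 at P7 (4.91 to 5.34). Of the 11997 genes tested in both libraries, 47 at P1 and 8 at P7 leaned further to the arterial cells.

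Sema3g was higher at P7 in arterial cells and higher at P1 in other endothelium. In arterial cells the log2 ratio of P1 over P7 was -1.33 (-1.67 to -1.02), which made Sema3g the 1 member of 3 tested there that was 2-fold apart, with 8.88% of all genes, and 2.62% of the genes tested were further towards P7. In other endothelium the ratio was 0.69 (0.45 to 0.93), short of 2-fold, and the difference between these ratios was not tested. After thinning the arterial ratio was -0.91. Arterial cells held 20.2% of all Sema3g UMIs at P1 and 57.2% at P7. Gja5, the gene of the gate, was itself at 253 CPM at P1 and 499.7 CPM at P7 in these cells, and its part in the difference was not tested.

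Grading the endothelium by connexin genes of arteries, Gja5 and Gja4, gave an ordered series for Sema3g at both ages. Cells with neither had 9.26 CPM at P1 against 2.76 at P7, and cells with Gja4 but no Gja5 had 36.9 and 52.7 CPM. Cells with 1 Gja5 UMI had 52.1 and 251 CPM, and those with 2 or more had 199 and 395 CPM. Sema3g went up along this series in each library, although the intervals of the 2 middle groups overlapped at P1. A Sema3g UMI was present in 62.3% of arterial cells at P1 and 76.0% at P7 (34.0% and 48.1% after thinning), against 0.281% (1 of 356) and 0 of 465 leukocytes, at median depths of 11740 and 8050 UMIs for arterial cells.

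**Figure D3:**
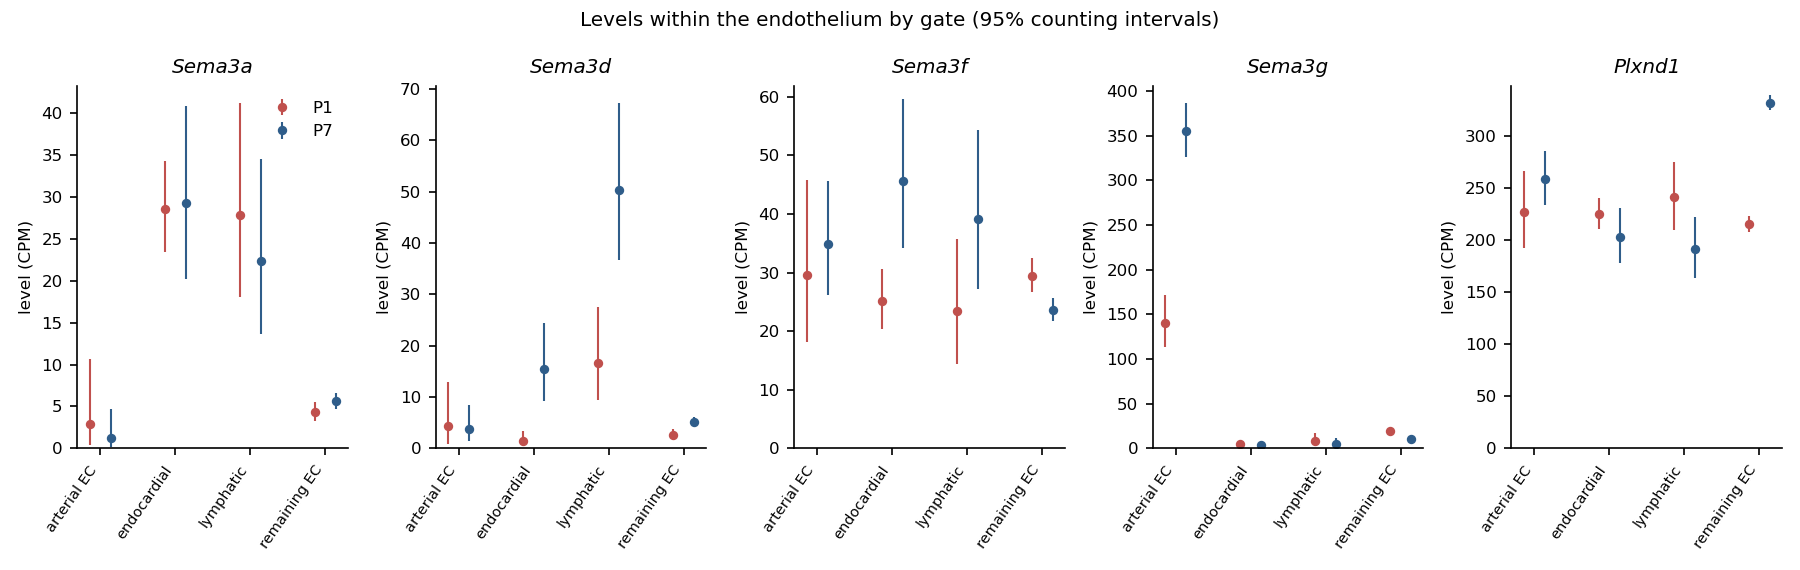
Levels of 5 members in CPM (vertical axes, from 0) in arterial, endocardial (Npr3), lymphatic (Prox1) and remaining endothelial cells (horizontal axes) at P1 (red) and P7 (blue), with 95% counting intervals. Sema3g was highest in arterial cells, Sema3a in endocardial and lymphatic cells (22.3 to 29.2 CPM), and Plxnd1 was present in all 4 groups. The endocardial and lymphatic gates shared 29 cells at P1 and 13 at P7.

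Sema3a was sparse in arterial cells, but it did not run opposite to Sema3g along the whole connexin series. Cells with Gja4 but no Gja5 had 15.2 CPM of Sema3a at P1 and 11.1 CPM at P7. Cells with neither gene had less, 8.07 and 6.41 CPM, and the intervals of these groups did not overlap in either library. Sema3a had 2 UMIs in arterial cells of each library (2.96 and 1.29 CPM), against 9.93 CPM at P1 and 7.12 CPM at P7 in other endothelium. The log2 ratio of arterial over other endothelium was -1.43 at P1 (-4.80 to 0.13) and -2.14 at P7 (-5.52 to -0.59), so the P1 value lay within counting error, and it was -0.95 after thinning. Sema3a and Sema3g were the 2 members of 7 tested that were 2-fold apart in both libraries in this comparison, where 7.26% of all genes were.

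Endocardial and lymphatic cells had higher levels of Sema3a than the remaining endothelium. The 2 gates shared 29 cells at P1 and 13 at P7, so part of their UMIs are the same. Neither gate was checked with other markers. Endocardial cells had 28.5 CPM at P1 (23.4 to 34.3) and 29.2 CPM at P7 (20.2 to 40.8). Lymphatic cells had 27.9 CPM at P1 (18.0 to 41.1) and 22.3 CPM at P7 (13.6 to 34.5), while the remaining endothelium had 4.29 and 5.61 CPM. The endocardial excess over the remaining endothelium was 2.73 on the log2 scale at P1 (2.26 to 3.21) and 2.40 at P7 (1.79 to 2.93), and the lymphatic excess 2.72 and 2.02. In UMIs, the endocardial cells held 111 at P1 and 34 at P7, the lymphatic cells 25 and 20, and the remaining endothelium 59 and 138, so that at P7 most endothelial Sema3a UMIs lay outside both gates. No age difference beyond counting error was detected in any of these 3 groups.

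The higher Sema3a level of the whole P1 library stood beside a larger number of endocardial cells, 296 at P1 and 84 at P7. Cells outside the 7 classes also held more of its UMIs at P1, 89 of 313 against 41 of 242 at P7. The part of either in the difference was not tested. In other endothelium as a whole the log2 ratio of P1 over P7 was 0.48 (0.18 to 0.78). In fibroblasts Sema3a was sparse, with 23 UMIs in 1246 cells at P1 and 8 in 2243 at P7. The epicardium had 27.5 CPM at P1 from 18 UMIs and 12.2 CPM at P7 from 3 UMIs, and the interval of that ratio (1.00, -0.60 to 3.58) spanned 0. It lay just inside 2-fold and passed it in 6 alternatives, at 1.86 or less. Smooth muscle and leukocytes had 0 Sema3a UMIs in both libraries.

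Sema3f was shared by endothelium, epicardium and smooth muscle. Other endothelium had 28.5 CPM at P1 (26.1 to 31.0) and 24.8 CPM at P7 (23.0 to 26.8), and arterial endothelium had 29.6 and 34.9 CPM. These endothelial levels differed little between ages, with a log2 ratio of 0.20 (0.03 to 0.37) in other endothelium and -0.21 (-1.05 to 0.53) in arterial cells. Other endothelium held 59.2% of all Sema3f UMIs at P1 and 63.0% at P7.

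Fibroblasts had little Sema3f, and less of it at P7. Pi16 fibroblasts had 5.80 CPM at P1 from 26 UMIs and 1.66 CPM at P7 from 45 UMIs, a log2 ratio of 1.82 (1.05 to 2.54). Pdgfra fibroblasts had 4.82 and 2.64 CPM (0.85, 0.22 to 1.55). Sema3f and Sema3c were the 2 members of 6 tested in Pi16 fibroblasts that were 2-fold apart, in opposite directions, beside 10.4% of all genes, while in Pdgfra fibroblasts Sema3c was the 1 of 6, beside 7.81%. Leukocytes had 0.664 and 0.279 CPM of Sema3f, from 2 and 1 UMIs.

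In the epicardium Sema3f had 41.3 CPM at P1 (27 UMIs; 27.2 to 60.1) and 89.2 CPM at P7 (22 UMIs; 55.9 to 135), with a log2 ratio of -1.12 (-1.98 to -0.23). The separate intervals overlapped, and the ratio was -0.73 without cells with a lung-gene UMI and -0.97 with a gate of 1 Upk3b UMI, both short of 2-fold. Smooth muscle had 13.2 and 11.8 CPM against 4.67 and 2.38 CPM in pericytes. The excess in smooth muscle was 1.45 on the log2 scale at P1 (0.27 to 2.88) and 2.22 at P7 (1.08 to 3.84), and the latter was 0.94 when cells that passed another lineage gate were kept. The P1 excess, from 21 against 8 UMIs, went as low as 0.68 in the alternatives. Over Pdgfra fibroblasts the epicardial excess of Sema3f was 3.12 at P1 and 5.08 at P7 (4.20 to 5.94).

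Sema3e, the ligand that binds plexin D1 directly, was close to the limit of detection. In the 7 classes together it had 18 UMIs at P1 and 8 at P7, of which 8 and 6 were in the epicardium (12.2 CPM, 5.28 to 24.1, and 24.3 CPM, 8.93 to 53.0). The endothelium had 1 UMI in 1686 cells at P1 and 0 in 3300 cells at P7, and pericytes had 0 in both libraries. Of its 43 UMIs at P1, 19 were in cells that passed no lineage gate. In no class did Sema3e reach the 20 summed UMIs set for a comparison.

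Plexin D1, the receptor, was endothelial at both ages. Plxnd1 had 217 CPM at P1 (210 to 224) and 323 CPM at P7 (316 to 330) in other endothelium, and 227 (192 to 266) and 259 CPM (234 to 285) in arterial cells. Other endothelium held 73.6% of all Plxnd1 UMIs at P1 and 73.4% at P7. The log2 ratio of P1 over P7 was -0.58 (-0.63 to -0.52) in other endothelium and -0.19 (-0.47 to 0.08) in arterial cells. The P7 excess in other endothelium was beyond counting error and short of 2-fold.

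Within the endothelium the higher P7 level of Plxnd1 was seen outside the specialised groups. The remaining endothelium had 215 CPM at P1 and 331 CPM at P7, whereas endocardial cells had 225 and 203 CPM and lymphatic cells 241 and 191 CPM. The log2 ratios were -0.62 (-0.69 to -0.56), 0.15 (-0.06 to 0.36) and 0.33 (0.04 to 0.63). At P1 these groups lay close together, and at P7 endocardial and lymphatic cells were 0.71 and 0.79 below the remaining endothelium on the log2 scale. The share of other endothelial cells with a Plxnd1 UMI was 73.7% at P1 and 81.1% at P7, and 34.0% and 46.0% after thinning, at median depths of 10219 and 7530 UMIs.

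Mural cells and leukocytes also carried Plxnd1. Smooth muscle had 55.3 and 67.8 CPM at P1 and P7, and pericytes 30.3 and 29.7 CPM. The 7 endothelial markers together had 302 and 375 CPM in smooth muscle and 373 and 466 CPM in pericytes. In other endothelium they had 5060 and 5335 CPM. The part of endothelial RNA in the mural Plxnd1 levels was not tested. The smooth muscle excess over pericytes was 0.86 at P1 and 1.18 at P7, and so passed 2-fold in P7 only. Leukocytes had 44.5 and 55.7 CPM, with a UMI in 27.5% and 27.1% of cells, which is far above their share for the ligands, and leukocytes therefore give no background for this gene. Fibroblasts had between 10.2 and 16.6 CPM. In neither smooth muscle nor pericytes did the ages differ beyond counting error, and 0 of 3 members tested in pericytes were 2-fold apart, where 5.44% of all genes were, although Sema3c passed 2-fold there in the 2 alternatives given with its values.

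**Figure D4:**
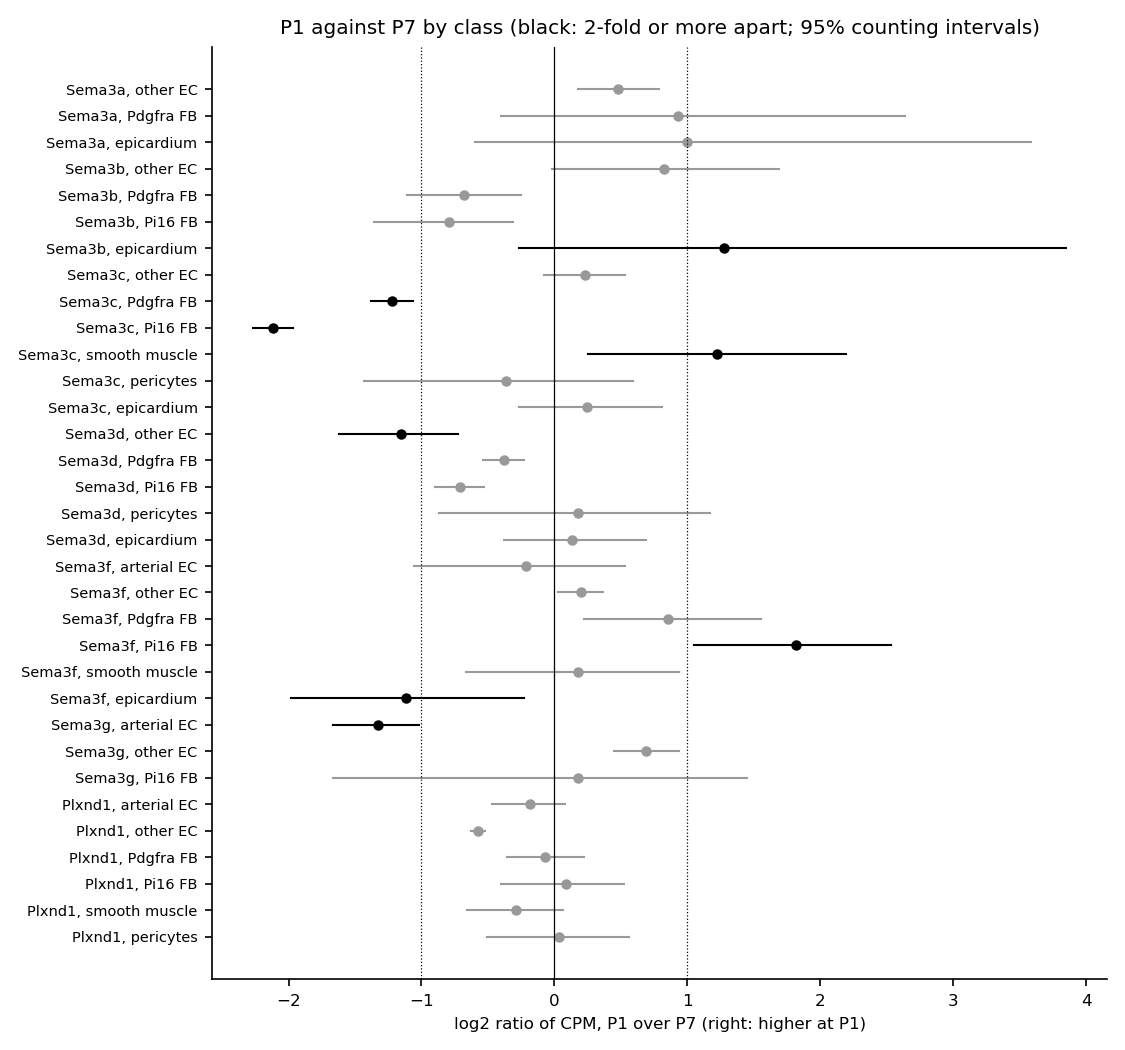
Log2 ratio of CPM at P1 over P7 (horizontal axis, positive values higher at P1) for each member and class with at least 20 summed UMIs (vertical axis), with 95% counting intervals. Black points mark the 8 pairs that were at least 2-fold apart, and the dotted lines mark 2-fold. Per class 3 to 7 members were tested, and 5.44% to 12.5% of all genes tested were 2-fold apart. Among the black points Sema3c in Pi16 fibroblasts lay lowest at -2.11 and Sema3f in the same class highest at 1.82. The interval of Sema3b in the epicardium spanned 0.

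The co-receptors, like Sema3g, were highest in endothelium, whereas Sema3b, Sema3c and Sema3d were highest in fibroblasts or epicardium. Nrp1, the co-receptor used by several of these ligands and by VEGF, had 443 and 555 CPM at P1 and P7 in other endothelium, 619 and 604 CPM in arterial cells, and 249 and 202 CPM in pericytes. Nrp2, the co-receptor with a known role in lymphatic vessels, had 213 and 388 CPM in other endothelium against 32.6 and 82.7 CPM in arterial cells. Its deficit in arterial cells was -2.67 on the log2 scale at P1 and -2.22 at P7. Among the signalling plexins of class A, Plxna4 had 278 CPM at P1 and 284 CPM at P7 in the epicardium, and at most 32.6 CPM in the other classes. Plxna2 had 72.6 and 33.0 CPM in arterial cells and 45.7 and 45.3 CPM in other endothelium, Plxna1 stayed between 4.44 and 28.4 CPM in all classes, and Plxna3 did not exceed 4.34 CPM.

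**Figure D5:**
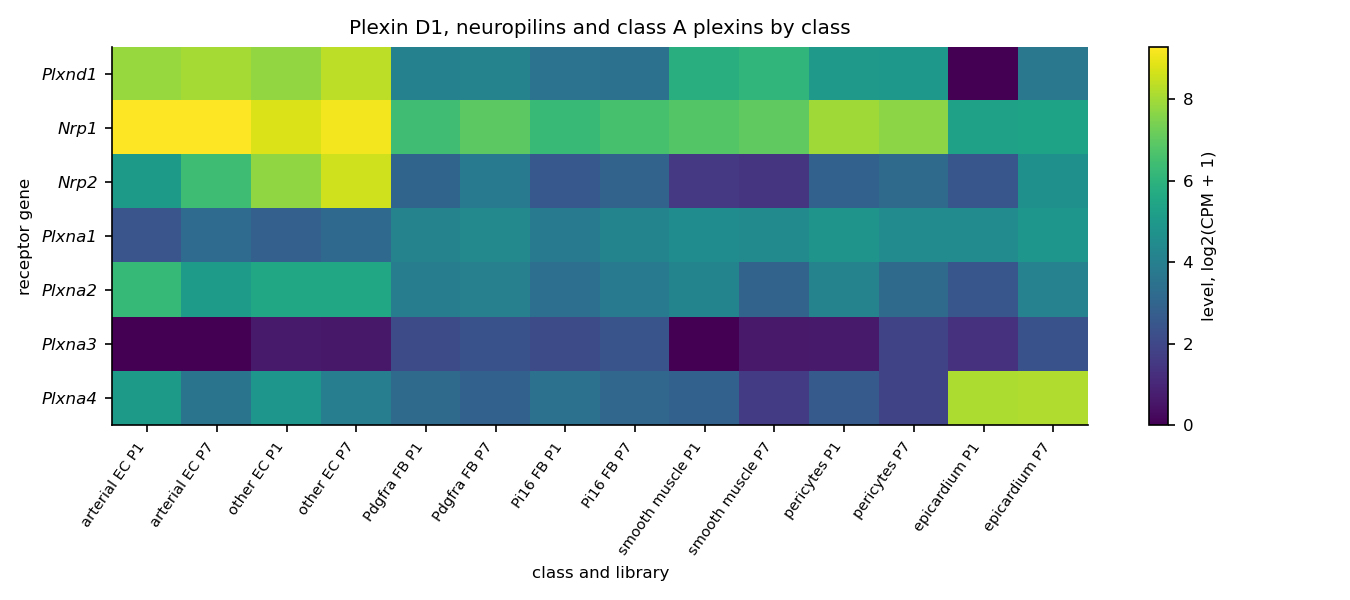
Levels of Plxnd1, the neuropilins and the class A plexins as log2(CPM + 1) (colour) in each class and library (horizontal axis), with genes as rows on the vertical axis. Colours are to be compared along a gene, and Plxna4 is brightest in the epicardium, at 278 CPM at P1 and 284 CPM at P7.

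Between the ages, 3 of the 4 neuropilins and class A plexins tested in arterial cells were 2-fold apart, beside 8.88% of all genes. Nrp2 was higher at P7 (log2 ratio of P1 over P7 -1.32, -2.07 to -0.68), while Plxna2 (1.14, 0.54 to 1.73) and Plxna4 (1.56, 0.59 to 2.57) were higher at P1. Plxna2 was also higher at P1 in smooth muscle (1.33) and pericytes (1.02). None of the 6 was 2-fold apart in other endothelium or in either fibroblast class, where all 6 were tested, nor were the 3 tested in the epicardium.

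A wider list of 43 genes held these 6, the other plexins, the semaphorins of classes 4 to 7, processing enzymes and intracellular partners, and the VEGF genes that share the receptors. In arterial cells 2 of 25 tested were 2-fold higher at P1 and 2 at P7 (8.88% of all genes in either direction), and in other endothelium 3 and 0 of 38 (9.17%). In Pdgfra fibroblasts the counts were 0 and 2 of 38 (7.81%), and in Pi16 fibroblasts also 0 and 2 of 38 (10.4%). They were 3 and 1 of 30 in smooth muscle (7.41%), 1 and 0 of 33 in pericytes (5.44%) and 3 and 2 of 16 in the epicardium (12.5%). The median log2 ratio of the tested genes lay between -0.28 in arterial cells and 0.06 in pericytes, beside medians of all genes between -0.06 and 0.02.

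Plxnc1, a receptor of Sema7a, was higher at P1 in other endothelium, with 24.4 CPM at P1 and 3.86 CPM at P7 (2.65, 2.35 to 2.98). Sema4d and Sema4g, membrane-bound semaphorins, were also higher at P1 there (1.59 and 1.45). These ratios include cells with a lung-gene UMI, which made up 23.1% of other endothelium at P1 and 4.54% at P7. In Pdgfra fibroblasts Crmp1, a collapsin response mediator, and Sema7a were higher at P7 (-1.26 and -1.06, the latter within counting error). In Pi16 fibroblasts Kdr, a VEGF receptor, had 3 UMIs at P1 and 94 at P7 (-2.16, -4.67 to -0.78), and Sema7a had 0 UMIs at P1 and 27 at P7, at least 1.49-fold higher at P7. The 7 endothelial markers, Kdr among them, together had 31.4 and 34.6 CPM in Pi16 fibroblasts, against 66.4 and 123 CPM in leukocytes. The part of endothelial RNA in the Kdr counts was not tested. In arterial cells Mical3, a plexin effector, was higher at P7 (-1.20).

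In smooth muscle, Flt1, a VEGF receptor, was higher at P1 (1.09, 0.34 to 1.84), whereas the intervals of the kinase Fes (-1.04) and of Farp2 (1.09), which binds class A plexins, spanned 0. In the epicardium Kdr was higher at P1 (1.47, 0.61 to 2.58), with 84 and 11 UMIs, and Mical2 at P7 (-1.34, -2.27 to -0.41). The kinase gene Fyn had 25 UMIs at P1 and 0 at P7, at least 3.14-fold higher at P1. The intervals of Dpysl3 (1.14) and Plxnb1 (-1.13) there spanned 0. These epicardial values include cells with a lung-gene UMI, which made up 62.8% of the epicardium at P1 and 10.0% at P7. The part of these cells in the differences was not tested. Over all cells Plxnb3 (1.27) was higher at P1 and Sema4f (-1.49) at P7, with 31 and 21 and with 5 and 25 UMIs.

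Likeness of pattern was described by the Pearson correlation of log2(CPM + 1) over 14 values, 7 classes in 2 libraries, among 12156 genes. The values of a class share their cells and those of a library their depth, so the correlations are given without a test. The genes most like Sema3g were Ptprr (r = 0.99), Alox12 (0.98) and Dhh (0.98), and those most like Sema3c were Cmtm7 (0.96), Thnsl2 (0.95) and Pdpn (0.94). Sema3d was most like Rbm28 (0.98), Fndc1 (0.97) and Rnase4 (0.97), and Sema3a most like Hdc (0.95), Wt1 (0.93) and Dcaf12l1 (0.92). Sema3b was nearest to Psd (0.96), Zfyve21 (0.96) and Tmem9 (0.95), and Sema3f to Frmd4b (0.97), Sft2d2 (0.97) and Skap2 (0.96). Plxnd1 was nearest to Zfp422 (0.96), Rnpep (0.95) and Ciapin1 (0.95), and Sema3e, with 26 UMIs in the classes, was not correlated. Among the members themselves, Sema3c and Sema3d had r = 0.89, Sema3b and Sema3d 0.87, Sema3g and Plxnd1 0.72, and Sema3b and Plxnd1 -0.91.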

How the data were processed

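Live cells from pooled hearts were profiled as 1 library at P1 and 1 at P7. Per the labels, the authors aligned the reads to mm10 (GRCm38) with Cell Ranger 3.1.0, which the submitters' processing notes name, and deposited raw UMI counts per gene and barcode, without normalisation. Barcodes with 200 to 8000 genes and at most 20% mitochondrial UMIs were kept here. The deposited files held 18 barcodes shared by both libraries, of which 13 were kept.

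A cell of a class passed its own lineage gate and no other (Cdh5, Pdgfra and Ptprc at least 1 UMI, Myh11, Kcnj8 and Upk3b at least 2). Smooth muscle and pericytes were separated by whether Myh11 exceeded Kcnj8, and epicardial cells could carry Pdgfra. Lymphatic and endocardial cells were endothelial cells without Gja5 with at least 1 UMI of Prox1 or Npr3, and leukocytes passed Ptprc alone. No doublet caller was run. Doublets were limited by the upper gene limit and by leaving out cells that passed several gates, and cells in the top 5% of UMIs were left out in an alternative.

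UMIs were summed per class and library and scaled to CPM. Log2 ratios had 0.5 counts added to each sum before scaling. Where the totals differ, ratios of genes with few UMIs are shifted towards the side with the smaller total. They can therefore lie nearer to 0 or further from it. Intervals are at 95% and cover counting error only. They are exact Poisson intervals for levels, Clopper-Pearson intervals for shares, and for ratios exact binomial intervals conditional on the summed UMIs. A gene was called 2-fold apart with at least 2-fold and 20 summed UMIs. Comparisons between classes required this in both libraries. A level of 0 was given an upper limit of 3 counts per class and library.

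Computation used python 3.11.15, numpy 2.4.6, scipy 1.17.1 and pandas 2.3.3. The calculation of ratios and intervals was checked on simulated Poisson counts. Those counts do not cluster in single cells as UMIs here can, so the check does not cover such spread. Members and gene lists were chosen with earlier results of these data known. The genes named are the members, gate markers, neuropilins and class A plexins, at most 5 other pathway genes per class that were 2-fold apart where a member was, and the 3 genes most like each member with at least 50 UMIs, among genes with at least 200 and without the gate markers. The 14 alternatives varied the mitochondrial limit, the gates, the scaling, thinning to 2000 UMIs, the minimum of summed UMIs, the counts added, cells of high UMIs and cells with lung genes (Sftpc, Ager, Foxf1, Hoxa5, Tbx4 or Nkx2-1).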

Additional observations from a re-analysis of the deposited data

Results flagged for a closer look

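The age ratios of Sema3c had opposite signs in different classes as gated here. On the log2 scale of P1 over P7 the ratio was 1.22 in smooth muscle, but -1.22 in Pdgfra fibroblasts and -2.11 in Pi16 fibroblasts. The smooth muscle value turned to -0.18 when cells that passed another lineage gate were kept, and was 0.24 without cells with a lung-gene UMI. Sema3f was likewise 1.82 in Pi16 fibroblasts and -1.12 in the epicardium. With 1 library per age, the difference between these classes was not tested, and the smooth muscle value rests on 20 UMIs in each library, with a UMI in 6.87% of cells at P1 and 1.99% at P7 against 0.281% and 2.58% of leukocytes.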

How the results depend on the processing

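The 25 single ratios behind the 2-fold calls were followed through the 14 alternatives. Of the resulting 350 values, 326 kept their direction and moved by less than their counting interval, 23 moved further and 1 reversed. The minimums of 10 and 50 summed UMIs choose genes and cannot alter a ratio, so their 25 values each were the same by design. Gating Pi16 fibroblasts on Pi16 alone can alter only ratios of that class, and no change of gate can alter a ratio over all cells. The 326 include all these fixed values. Of 25 values, thinning moved 9, the mean of cell CPM 6 and leaving out cells with lung genes 3. Keeping cells that passed another gate moved 4 and reversed 1, and a gate of 1 Upk3b UMI moved 1. Ratios that were not called, such as those of Sema3c in other endothelium and pericytes, are left out of these counts. Sema3c in smooth muscle turned to -0.18 when cells that passed another lineage gate were kept, and ranged up to 2.89. In Pi16 fibroblasts its ratio stayed between -2.70 and -2.06, in Pdgfra fibroblasts between -1.54 and -1.02, and that of Sema3g in arterial cells between -1.41 and -0.91. Thinning each cell to 2000 UMIs left 4 pairs of member and class 2-fold apart between ages, 3 of them among the 11 reported and the other Sema3c in other endothelium, and 1 member between arterial and other endothelium, 0 between the fibroblast classes, 0 between smooth muscle and pericytes and 1 between epicardium and Pdgfra fibroblasts. It left fewer members with 20 summed UMIs, and 25 pairs were tested in place of 41. Keeping cells that passed another gate gave 1 member between smooth muscle and pericytes and 5 between epicardium and fibroblasts. A minimum of 10 UMIs gave 2 members between the fibroblast classes, a minimum of 50 gave 0 between smooth muscle and pericytes, and leaving out cells with lung genes also gave 0 there. No share of all genes is given at the altered settings, so these counts of members are not read as results about them. The causes of these last changes were not tested. Of the 11 pairs, 7 remained 2-fold apart without cells with lung genes. The depth of 43 and 20 epicardial cells, 53 arterial cells at P1 and 43 and 22 Sema3e UMIs limits what was detectable. No paired analysis was possible because each age had 1 library.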

Other observations

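Cardiomyocytes, gated by the troponin gene Tnnt2 (at least 5 UMIs and 0.1% of the cell), numbered 95 at P1 and 15 at P7 in these libraries and held at most 8 UMIs of any ligand.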
